A study of Mus musculus with 24 samples.

Results

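Mouse embryonic stem cells (mESCs) that carried a stably transfected short hairpin RNA against Ring1b were compared with untransfected cells of the same line. Ring1b is the protein made by the gene that the files list as Rnf2. The comparison rests on 6 of the 24 libraries of the series: the 3 whose titles name mESCs with shRing1b and the 3 whose titles name mESC controls. All 6 were poly-A RNA of ES-E14TG2a cells, a blastocyst-derived line of the 129/Ola strain, grown pluripotent with LIF and serum on plates without feeder cells. The untransfected cells had been through no transfection, so an effect of transfection and an effect of the target cannot be told apart from these 2 groups. Cells with shNMC, a hairpin without a mammalian target, form another group of 3 libraries, and their levels stand beside some results. How many hairpin sequences or clones the shRing1b cells represent is not given in the sources used here. Nothing in the labels says that replicates were separate cultures, so p-values measure only the spread between these libraries, which may be technical.

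Ring1b is an E3 ubiquitin ligase. Together with its paralog Ring1 (Ring1a) it forms the catalytic core of Polycomb repressive complex 1 (PRC1), which attaches ubiquitin to histone H2A on chromatin. Canonical PRC1 contains a Cbx protein that binds the histone methylation laid down by PRC2, whereas variant PRC1 contains Rybp or Yaf2 and reaches promoters through partners such as Kdm2b or, in the form built around Pcgf6 and called PRC1.6, through Mga, Max, E2f6 and L3mbtl2. In mESCs, PRC1 is known for keeping developmental regulators such as the Hox genes silent, and PRC1.6 for keeping genes of germ cells and meiosis silent.

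Reads assigned to genes numbered 27.4 to 34.1 M in each of the 6 libraries, and 3 counts corresponded to 0.0879 to 0.11 CPM, the count of a gene scaled to the size of its library. Reads with several alignments made up 20.02% to 21.7% of all entries in these libraries and 44.1% to 49.1% in the other 18, among them shNMC. The shRing1b libraries stood apart from each other. The correlation of log2 CPM across genes was 0.979 between shRing1b replicates 1 and 2, 0.965 between 1 and 3 and 0.948 between 2 and 3, against 0.981 to 0.990 among the untransfected libraries. Pluripotency genes were abundant in all 6, with a summed level of 12950 to 13570 CPM for the 36 genes tested in untransfected cells and of 12800, 12310 and 11540 CPM in shRing1b replicates 1, 2 and 3. Of 21 fibroblast and feeder cell markers, 10 were under the filter on low counts, among them Fap with 0 counts in every library and Dcn, Lum and Postn with at most 2 counts in any library. Of the 11 tested, 5 lay above every control in all 3 shRing1b libraries, beside 8.42% of all genes, and the median log2 difference was 0.75, 0.61 and 0.90 in replicates 1, 2 and 3. The summed level of the 11, mostly Fn1, was 2119 to 3201 CPM in untransfected cells and 1932, 1666 and 2111 CPM in shRing1b cells. Under the filter, Acta2 had 0, 3 and 6 counts in controls and 75, 15 and 0 in shRing1b cells, and Col6a3 had 5, 4 and 6 against 19, 22 and 6. The part of these markers in the results was not tested.

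Rnf2 itself was lowered strongly in shRing1b replicates 1 and 2, and slightly in replicate 3. Its level was 209, 285 and 246.5 CPM in the untransfected libraries and 50.3, 61.6 and 198 CPM in shRing1b replicates 1, 2 and 3. The groups did not overlap, but the library labelled shRing1b replicate 3 lay just under the lowest control. Over all 6 libraries the log2 change was -1.26 (SE 0.47), with an adjusted p of 0.374 in the quasi-likelihood test of edgeR with Benjamini-Hochberg adjustment, so Rnf2 was not called. Without replicate 3 the change was -2.14 (SE 0.17); since that library is set aside for its Rnf2 level, this is a description and no test of Rnf2. By library the log2 difference from the untransfected mean was -2.28, -1.99 and -0.31. An exact two-sided permutation test of the log2 levels gave p = 0.1, which is the smallest that 3 against 3 libraries allow. On the scale of all 24 libraries, shNMC cells had 266, 278 and 240 CPM of Rnf2 against 221, 303 and 262 CPM in untransfected cells, so the hairpin control lay in the range of the untransfected libraries.

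The test over all 6 libraries called 0 of 14378 genes higher and 0 lower (0%), with 1052 genes higher and 574 lower at an unadjusted p under 0.05 and a lowest adjusted p of 0.0872. On the same 6 libraries, DESeq2 called 290 genes higher and 88 lower (1.55% and 0.47% of 18730). Of the 18730, 3952 received no adjusted p and could not be called, so the shares of callable genes were larger. An edgeR fit on all 24 libraries called 1576 higher and 883 lower (9.68% and 5.42% of 16280). When shRing1b replicate 3 was left out, the edgeR test called 456 genes higher and 68 lower, which is 3.11% and 0.464% of 14660 genes, and 440 of the higher ones changed at least 2-fold against 17 of the lower ones. Leaving out any one of the other 5 libraries gave 0 calls in either direction. Of the 14378 genes that passed the filter over all 6 libraries, these calls took in 395 higher (2.75%) and 68 lower (0.473%), which are the background for the counts of list members below. Those counts leave out genes that passed the filter only without replicate 3. The 440 genes above include such genes, whereas all 68 lower genes passed over 6 libraries, so the 440 and the 17 are not on equal terms. Because replicate 3 was singled out by its Rnf2 level, every such call describes 2 shRing1b libraries against 3 controls, and the level in replicate 3 is given with it. Regardless of size, all 3 shRing1b libraries lay above all 3 controls for 1210 genes (8.42%) and below them for 1083 (7.53%).

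**Figure D1:**
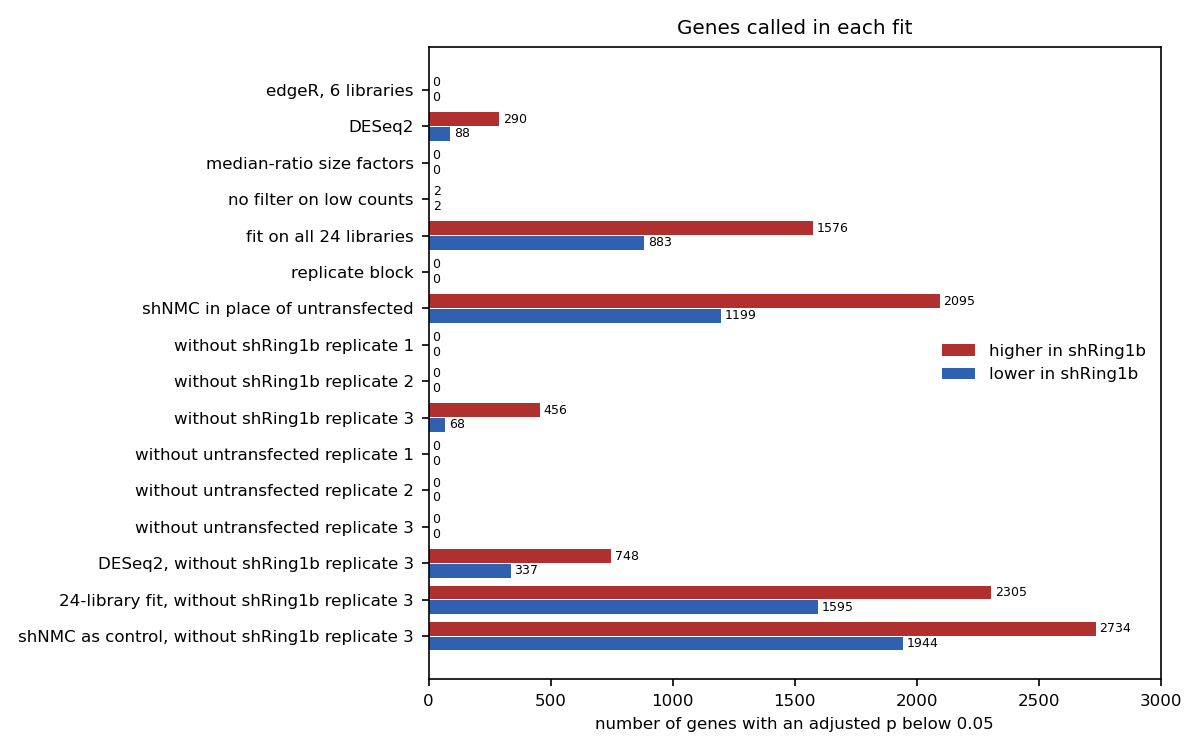
Number of genes with an adjusted p below 0.05 in each fit (horizontal axis), higher in shRing1b cells in red and lower in blue. The edgeR test on all 6 libraries called none, and leaving out shRing1b replicate 3 gave 456 higher and 68 lower.

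Among other genes of the Polycomb machinery, 1 of 6 Pcgf genes and 3 of 10 canonical PRC1 genes rose without replicate 3. These were 16.7% and 30%, beside 2.75% of all genes. Ring1, the paralog of Ring1b, had 5.83, 5.16 and 4.83 CPM in untransfected cells and 6.20, 6.60 and 4.72 CPM in shRing1b replicates 1, 2 and 3, so the groups overlapped (log2 change without replicate 3 0.28, SE 0.26, edgeR adjusted p = 0.622). Of the 6 Pcgf genes, which each define a form of PRC1, only Bmi1 (Pcgf4) was called in the fit without replicate 3: 11.3, 11.4 and 14.4 CPM in controls against 22.0 and 31.9 CPM in replicates 1 and 2 (adjusted p = 0.0299), with 3.54 CPM in replicate 3. Bmi1 was thus higher than in any control in replicates 1 and 2 and lower than in any control in replicate 3. Pcgf5 lay above every control in all 3 shRing1b libraries, with 16.6, 14.6 and 12.5 CPM against 25.8, 23.7 and 38.6 CPM, but its adjusted p was 0.199 over all 6 libraries and 0.0643 without replicate 3. Pcgf6, the defining subunit of PRC1.6, had 116 to 144 CPM in controls and 117 to 121 CPM in shRing1b cells.

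Among the 10 genes of canonical PRC1, 3 rose in the fit without replicate 3 and 0 fell, beside 2.75% and 0.473% of all genes. The 24-library fit called 5 higher and 1 lower, beside 9.68% and 5.42% of all genes. Scml2, a Polycomb protein of the germ line encoded on the X chromosome, had 9.38, 9.97 and 8.54 CPM in controls and 24.2, 76.4 and 24.4 CPM in shRing1b replicates 1, 2 and 3 (log2 change without replicate 3 2.44, SE 0.40, edgeR adjusted p = 0.0158). All 3 shRing1b libraries stood above the controls for Scml2, replicate 2 most. Phc2, a Polyhomeotic subunit, rose from 20.8 to 25.3 CPM to 37.4 and 41.5 CPM with 24.7 CPM in replicate 3, and Cbx8 from at most 0.602 CPM to 1.49 and 2.47 CPM with 0.594 CPM in replicate 3. Cbx7, a Cbx protein of canonical PRC1 in mESCs, was below every control in all 3 libraries at 232 to 251 CPM against 273 to 302 CPM, and was not called (adjusted p = 0.272 without replicate 3).

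None of the 23 genes of variant PRC1 and none of the 12 PRC2 genes was called in either direction by the edgeR test on the 6 libraries, or on 5 without replicate 3. The 24-library fit called 2 of the 23 variant PRC1 genes higher and 2 lower. Of the 12 PRC2 genes it called 0 higher and 3 lower. Of all genes in that fit, 9.68% were called higher and 5.42% lower. The median log2 change without replicate 3 was -0.02 for the variant PRC1 genes and -0.17 for PRC2, beside -0.01 for all genes tested. Eed, Rbbp4 and Aebp2 of PRC2 were below every control in all 3 shRing1b libraries. Eed, the subunit that binds methylated H3, had 408, 492 and 504 CPM in controls and 390, 363 and 307 CPM in shRing1b cells (adjusted p = 0.259 without replicate 3). Of 10 deubiquitinases and readers of ubiquitylated H2A, such as Bap1, Usp16 and Dnajc2, 0 were called. Med12 and Cdk8, the targets of other hairpins in the series, were not called either.

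**Figure D2:**
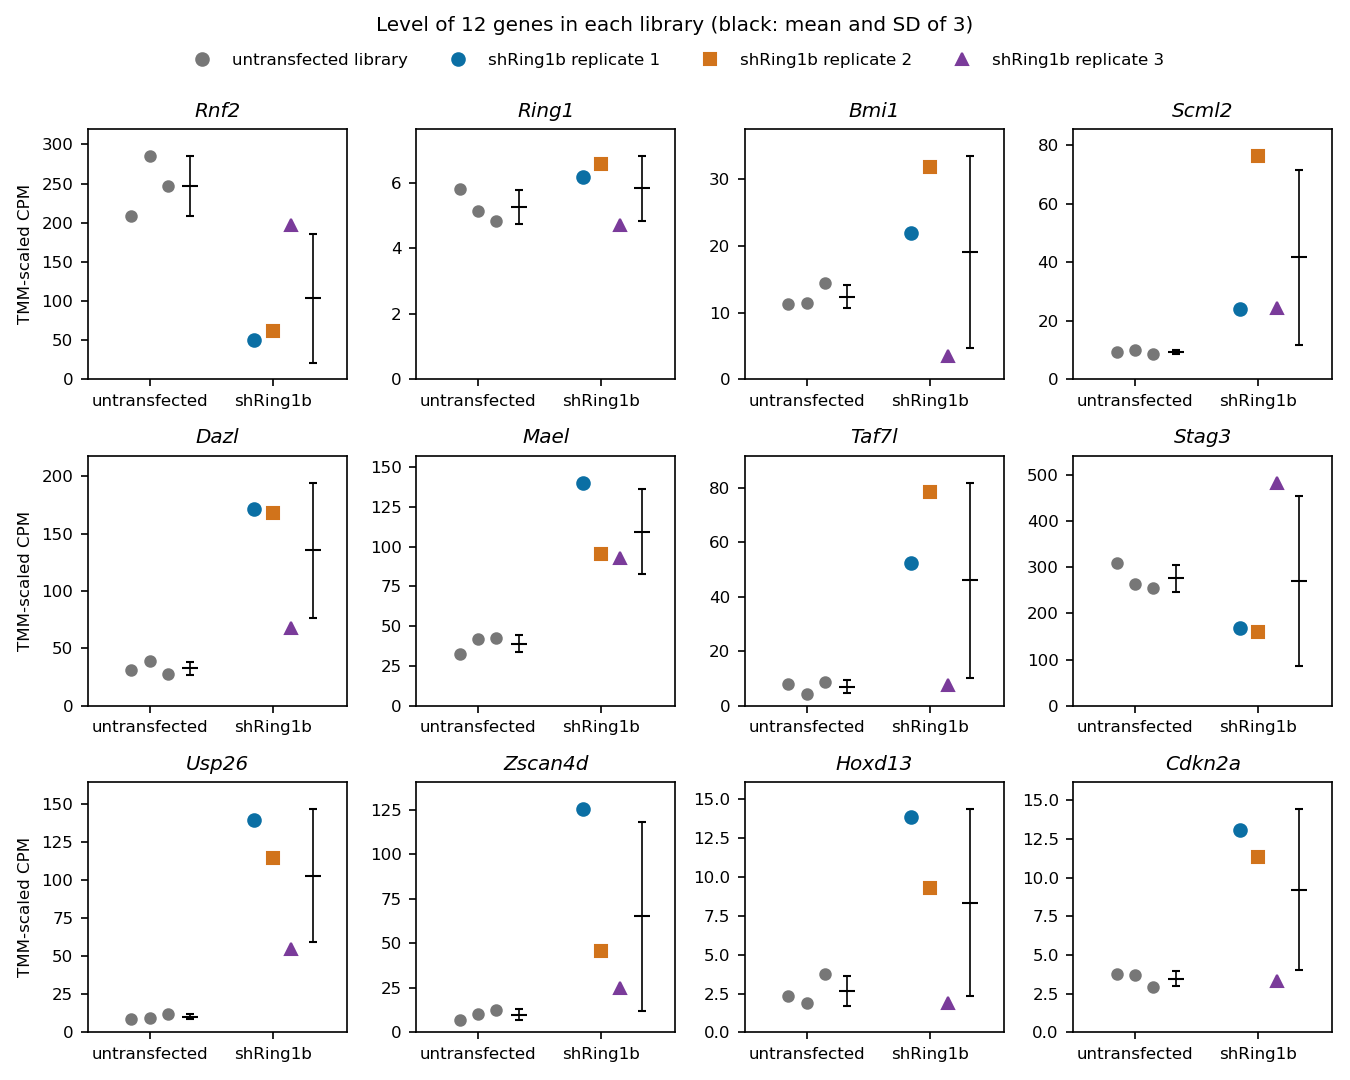
TMM-scaled CPM (vertical axes, each from 0) of 12 genes in the 3 untransfected libraries (grey) and in shRing1b replicates 1, 2 and 3 (blue circle, orange square, purple triangle), with the mean and SD of each group in black. Rnf2 is near 50 to 62 CPM in replicates 1 and 2 and 198 CPM in replicate 3, and Mael and Usp26 lie above the controls in all 3 replicates.

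Genes of the germ line and of meiosis that PRC1.6 is known to bind held the most calls. Of 41 such genes tested, 22 rose and 3 fell without replicate 3, while 16 were not called. The median log2 change was 1.29 against -0.01 for all genes tested. By library, the median log2 difference from controls was 1.28, 1.24 and 0.70 in shRing1b replicates 1, 2 and 3, and 24, 22 and 17 of the 41 genes were at least 2-fold up, where the share of all genes was 6.80%, 8.64% and 6.33%. In all 3 shRing1b libraries together, 19 of the 41 lay above every control, beside 8.42% of all genes, and 0 lay below. With all 6 libraries kept, DESeq2 called 20 of them higher, and the 24-library fit 28.

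The promoters of several of these genes hold the E-box CACGTG, the sequence that Max dimers such as Mga with Max bind. A promoter of RefSeq (GRCm38.p6), 250 bases before to 50 after the start, was found for 37 of the 41 genes. The E-box, which reads the same on both strands, was in 16 of the 37 (43.2%), in 10 of the 19 with a promoter among those that rose (52.6%) and in 6 of the other 18 (33.3%), beside 8.09% of the 27025 genes of the promoter table. GCGGGAA, a motif of E2F proteins searched on both strands, was in 12 of the 37 (32.4%), in 4 of the 19 (21.1%) and in 8 of the 18 (44.4%), beside 5.29% of the table. Both motifs were thus more frequent in the list than in the table, and only the E-box had a larger share among genes that rose than among the rest, a difference that was not tested. The list was drawn up from genes known as PRC1.6 targets, so its motif content is no independent finding. The stretches of 6 promoters around the first E-box are given because 4 of the genes (Mael, Stk31, Slc25a31 and Brdt) were higher in all 3 shRing1b libraries, and the other 2 (Taf7l and Sycp1) only in replicates 1 and 2. Capitals mark the E-box, and the sequence runs 5′ to 3′ on the strand of the gene. The number before each sequence is the position of the first base of the E-box, counted from the transcription start.
Mael, chr1:166238932-166238994, minus strand, first base at -223: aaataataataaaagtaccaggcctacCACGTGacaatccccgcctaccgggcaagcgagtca
Stk31, chr6:49395454-49395519, plus strand, first base at -55: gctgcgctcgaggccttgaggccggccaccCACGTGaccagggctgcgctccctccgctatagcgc
Slc25a31, chr3:40708748-40708813, plus strand, first base at -93: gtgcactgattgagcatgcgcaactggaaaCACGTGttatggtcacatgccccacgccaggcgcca
Brdt, chr5:107331086-107331151, plus strand, first base at -78: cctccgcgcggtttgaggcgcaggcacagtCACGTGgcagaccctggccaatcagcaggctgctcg
Taf7l, chrX:134476504-134476569, minus strand, first base at -49: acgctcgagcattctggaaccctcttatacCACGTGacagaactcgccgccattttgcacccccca
Sycp1, chr3:102936159-102936224, minus strand, first base at -94: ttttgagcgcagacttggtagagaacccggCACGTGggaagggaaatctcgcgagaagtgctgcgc

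Germline genes that were high in all 3 shRing1b libraries included several factors of transposon silencing and meiosis. Mael, the piRNA pathway factor Maelstrom, had 32.8, 41.8 and 42.5 CPM in untransfected libraries and 140, 95.0 and 92.8 CPM in shRing1b replicates 1, 2 and 3, with no overlap (log2 change over all 6 libraries 1.49, SE 0.20, edgeR adjusted p = 0.11). It was called without replicate 3 (adjusted p = 0.00577). Hormad2, a protein of unsynapsed meiotic chromosome axes, had 7.80, 6.47 and 6.26 CPM against 20.7, 20.01 and 18.6 CPM. The 3 shRing1b levels of Hormad2 were close to each other in spite of the difference in Rnf2 (log2 change 1.53, SE 0.19, edgeR adjusted p = 0.0971 over 6 libraries and 0.00706 without replicate 3). Sohlh2, a transcription factor of early germ cells, had 39.4, 37.8 and 32.9 CPM against 61.4, 110 and 116 CPM. Brdt, a bromodomain protein of the testis, had 3.90, 3.35 and 3.75 CPM against 7.59, 13.6 and 18.3 CPM. Both were higher in replicates 2 and 3 than in replicate 1.

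Other germline genes were high in replicates 1 and 2 and intermediate in replicate 3. Dazl, an RNA-binding protein of germ cells, had 31.0, 39.2 and 28.0 CPM in controls and 171, 168 and 67.8 CPM in shRing1b replicates 1, 2 and 3 (log2 change without replicate 3 2.38, SE 0.16, edgeR adjusted p = 0.000826). In shNMC cells Dazl was at 30.6 to 38.1 CPM on the 24-library scale, where untransfected cells had 29.7 to 41.6 CPM. Ddx4 (Vasa), a germ cell RNA helicase, had 33.1, 35.0 and 37.6 CPM against 125, 97.7 and 45.2 CPM (log2 change without replicate 3 1.66, SE 0.15, edgeR adjusted p = 0.00228). Replicate 3 was above each control for both genes, but on the CPM scale nearer to the controls than to the other shRing1b libraries. This was also seen for Slc25a31, a mitochondrial ADP/ATP carrier of the testis, with 3.06, 5.23 and 5.04 CPM against 20.7, 17.9 and 10.1 CPM. It was seen as well for the synaptonemal complex gene Sycp2, with 4.29 to 7.87 CPM against 28.3, 26.1 and 12.9 CPM.

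A further set rose without replicate 3 while replicate 3 was at or just under the control level. Taf7l, a testis form of a TFIID subunit, had 7.97, 4.29 and 8.79 CPM in controls and 52.6 and 78.4 CPM in replicates 1 and 2, but 7.55 CPM in replicate 3 (log2 change without replicate 3 3.23, SE 0.30, edgeR adjusted p = 0.00228). In shNMC cells Taf7l was at 10.8 to 14.3 CPM, above the 4.55 to 9.32 CPM of untransfected cells on the same scale. Sycp1, which forms the transverse filaments of the synaptonemal complex, had 6.74, 6.77 and 11.2 CPM against 39.0, 36.9 and 5.83 CPM. Syce1, Tex11, Tdrd1 and Mov10l1 also rose without replicate 3 and had a replicate 3 level that overlapped the controls, and Piwil2 rose with a replicate 3 level just under the lowest control. The 3 members that fell without replicate 3 were above the controls in it. Stag3, a meiotic cohesin subunit, had 309, 264 and 255 CPM in controls, 168 and 160 CPM in replicates 1 and 2 (adjusted p = 0.0204) and 484 CPM in replicate 3. Hormad1 had 31.3, 33.9 and 36.9 CPM, then 17.5 and 19.6 CPM (adjusted p = 0.0264) and 40.6 CPM in replicate 3. Hsf2bp had 114 to 115 CPM, then 66.7 and 74.2 CPM and 132 CPM.

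**Figure D3:**
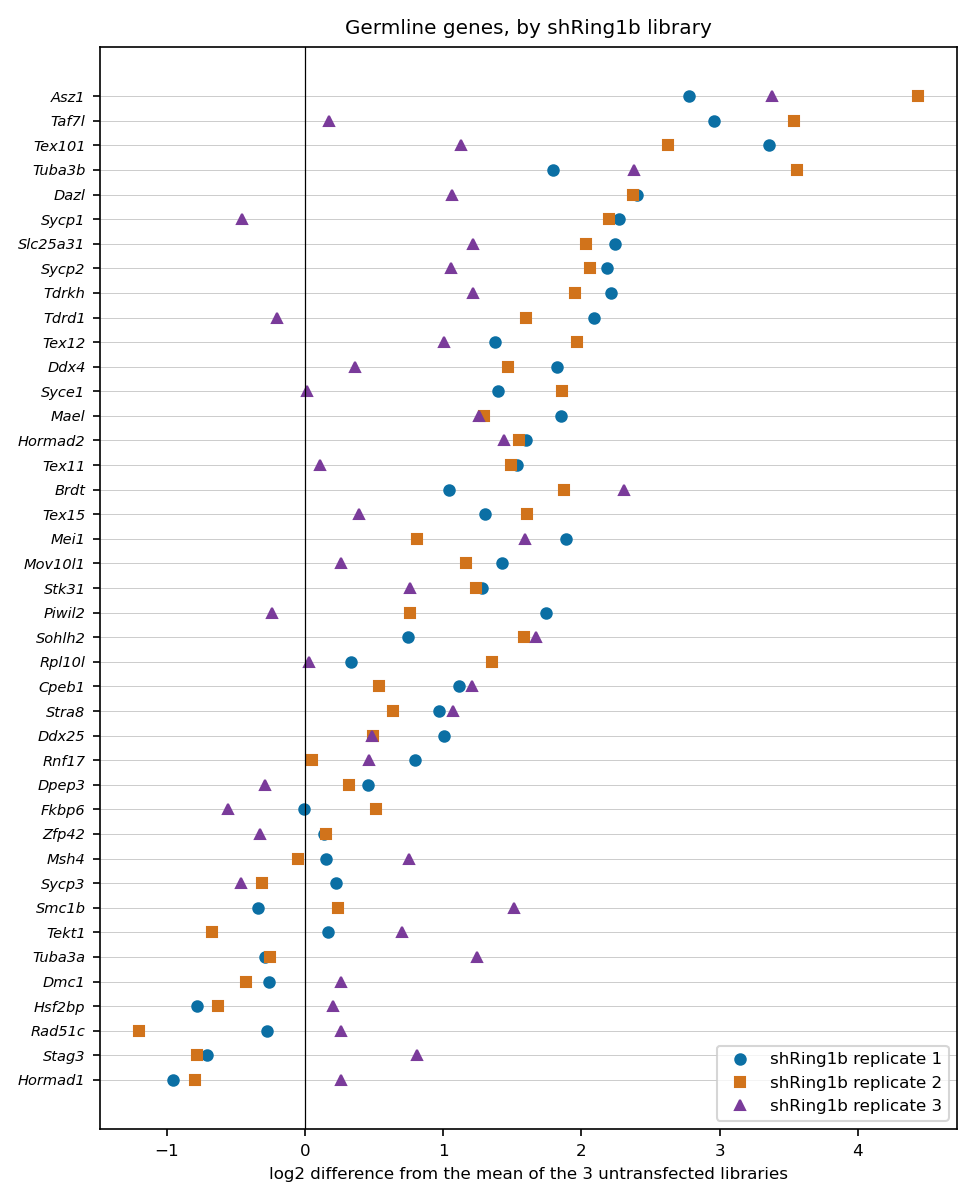
Log2 difference of each of 41 germline genes from the mean of the 3 untransfected libraries (horizontal axis) in shRing1b replicates 1 (blue circle), 2 (orange square) and 3 (purple triangle), with genes ordered by the sum over replicates 1 and 2. Dazl, Mael and Hormad2 are right of 0 in all 3 libraries, whereas Stag3, Hormad1 and Hsf2bp are left of 0 in replicates 1 and 2 and right of 0 in replicate 3.

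Genes that mark the two-cell-like state, a rare state of mESC cultures that resembles the cleaving embryo, had the largest list median. Of 20 tested, 16 rose and 0 fell without replicate 3, with a median log2 change of 2.53. The median log2 difference was 2.93, 2.19 and 0.81 in shRing1b replicates 1, 2 and 3, and 14 of the 20 lay above every control in all 3, beside 8.42% of all genes. With all 6 libraries kept, DESeq2 called 14 higher and the 24-library fit 17. Usp26, a deubiquitinase gene on the X chromosome, had 8.85, 9.67 and 12.01 CPM in controls and 140, 115 and 54.7 CPM in shRing1b cells, and its adjusted p of 0.0872 was the lowest of all genes in the 6-library test (log2 change 3.34, SE 0.34). In shNMC cells Usp26 was at 10.1 to 12.6 CPM. Zscan4d, which acts on telomeres, had 6.88, 10.5 and 12.7 CPM against 125, 45.7 and 24.8 CPM. All 6 Zscan4 genes measured rose without replicate 3, and replicate 1 had the highest level of each.

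Tcstv3, of the same state, had 25.1, 28.1 and 25.4 CPM in controls and 164, 108 and 46.3 CPM in shRing1b replicates 1, 2 and 3 (log2 change without replicate 3 2.38, SE 0.18, edgeR adjusted p = 0.000996). The deubiquitinase gene Dub1 had 2.67, 4.14 and 4.45 CPM against 48.6, 34.4 and 7.33 CPM. The order of the libraries was the same in both genes, with replicate 3 nearest to the controls. Pramel6 departed from it, at no more than 0.752 CPM in controls and 3.55, 44.2 and 0.707 CPM in shRing1b cells, so that replicate 2 set its change. Dux, the factor that starts the two-cell programme, was at 0.0752 to 0.49 CPM in controls and 1.75, 0.521 and 0.396 CPM in shRing1b cells and was not called (adjusted p = 0.164 without replicate 3). Tdpoz4, Zfp809 and Eif1a were not called either. Zscan4, Tcstv, Dub1 and Pramel genes have near-identical copies. Reads with several alignments were left out, so the levels of these genes rest on reads with a single alignment. How much of their RNA this misses is not known. The sum over all 20 genes was 439 to 586 CPM in controls and 1391, 1019 and 590.5 CPM in shRing1b cells.

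**Figure D4:**
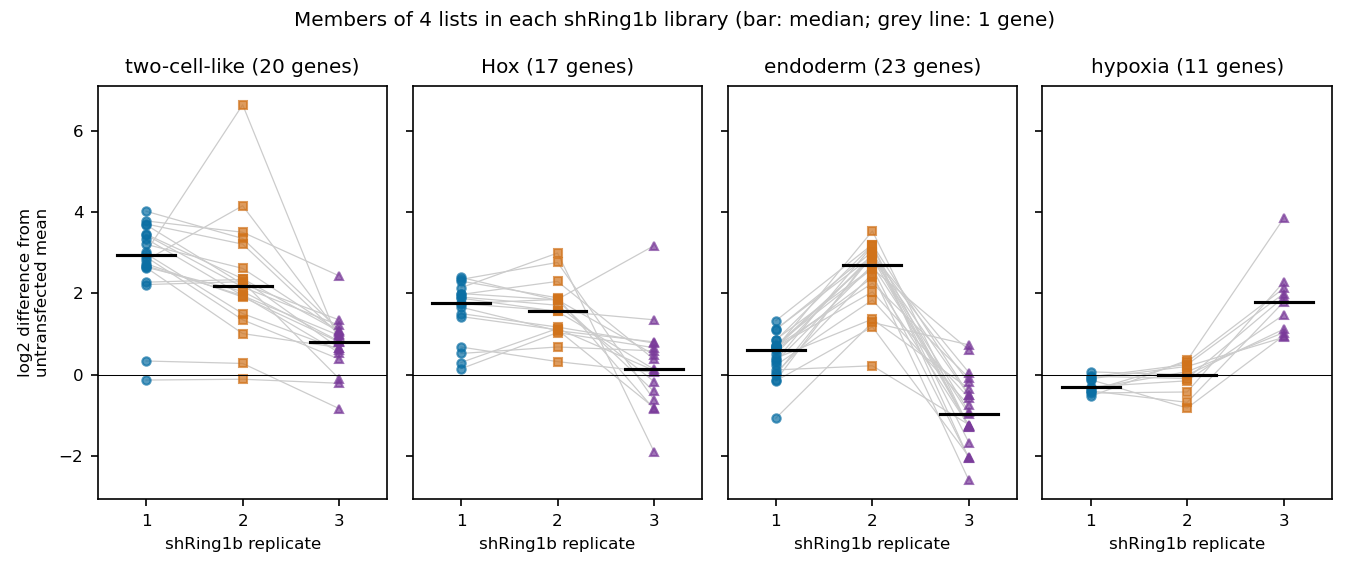
Log2 difference of each member from the mean of the 3 untransfected libraries (vertical axis) in shRing1b replicates 1, 2 and 3, for 20 two-cell-like genes, 17 Hox genes, 23 extraembryonic endoderm genes and 11 hypoxia genes. Grey lines join 1 gene and bars are medians: endoderm genes are high in replicate 2, and hypoxia genes in replicate 3.

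Hox genes, the classic Polycomb targets, were expressed at low levels. Of the 39 in the files, 17 passed the filter over 6 libraries and 22 did not. Without replicate 3, 4 of the 17 rose (Hoxa10, Hoxc10, Hoxd9 and Hoxd13) and 0 fell, beside 2.75% of all genes. Hoxd13 had 2.35, 1.92 and 3.78 CPM in controls and 13.8 and 9.31 CPM in shRing1b replicates 1 and 2, with 1.92 CPM in replicate 3 (log2 change without replicate 3 2.11, SE 0.34, edgeR adjusted p = 0.0159). Hoxa10 had 0.632, 0.489 and 0.70 CPM against 2.88, 5.25 and 0.113 CPM, and Hoxd9 had 0.386, 0.15 and 0.42 CPM against 1.78, 2.40 and 0.17 CPM. In these genes replicate 3 was within or below the range of the controls. Another 7 passed the filter only without replicate 3, through the high counts of replicates 1 and 2, and are not counted. Hoxa9, one of them, had 1, 0 and 0 counts in controls and 31, 25 and 3 in shRing1b replicates 1, 2 and 3. Hoxd1 departed from the rest with 1.19, 0.602 and 0.805 CPM against 2.97, 2.60 and 2.23 CPM, higher in all 3 libraries and not called (adjusted p = 0.0532 without replicate 3). The list median was 1.75, 1.57 and 0.13 by library, and 5 of the 17 genes lay above every control in all 3 shRing1b libraries (8.42% of all genes).

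Of 67 tested transcription factors of development, outside the Hox clusters, that are known Polycomb targets, 10 rose and 0 fell without replicate 3. Of all genes, 2.75% rose and 0.473% fell. Another 75 of these factors were under the filter over 6 libraries. The median log2 difference of the 67 was 0.86 and 1.14 in replicates 1 and 2 but -0.35 in replicate 3. In replicate 3, 22 were at least 2-fold below the control mean and 10 at least 2-fold above, beside 3.23% and 6.33% of all genes. Lmx1a, a factor of midbrain dopamine neurons, had 1.76, 2.60 and 1.82 CPM in controls and 8.14, 9.59 and 1.98 CPM in shRing1b replicates 1, 2 and 3 (adjusted p = 0.0102 without replicate 3). Meis1, a cofactor of Hox proteins, had 2.07, 1.58 and 1.26 CPM against 5.95, 6.70 and 0.368 CPM. Both genes were above every control in replicates 1 and 2, and Meis1 was below every control in replicate 3. Osr2 was above every control in all 3, with 0.301 to 0.455 CPM against 2.20, 2.26 and 0.537 CPM. Otx2, a factor of the primed epiblast and the forebrain, had 10.99, 14.8 and 12.6 CPM against 17.1, 18.8 and 63.4 CPM, which makes replicate 3 the highest, and was not called. Among 35 signalling genes known as Polycomb targets, 2 rose and 0 fell without replicate 3, with Bmp2 at 0.301 to 0.703 CPM in controls and 2.003, 4.13 and 0.255 CPM in shRing1b cells.

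Cdkn2a, which encodes the cell cycle inhibitors p16Ink4a and p19Arf and is a known PRC1 target, had 3.76, 3.73 and 2.90 CPM in controls and 13.1, 11.3 and 3.31 CPM in shRing1b replicates 1, 2 and 3 (log2 change without replicate 3 1.82, edgeR adjusted p = 0.0097). It was the only one of 22 CDK inhibitors and senescence genes called without replicate 3. Cdkn1a (p21) had 42.0 to 90.4 CPM in controls and 46.9 to 80.2 CPM in shRing1b cells, which overlapped. None of 32 cell cycle genes was called without replicate 3. In all 3 shRing1b libraries, 8 of the 32 lay below every control and 0 above, beside 7.53% and 8.42% of all genes. The 24-library fit called 0 of them higher and 3 lower, beside 9.68% and 5.42% of all genes. The summed level of the 32 was 8926 to 9918 CPM in controls and 8515 to 9063 CPM in shRing1b cells.

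Few pluripotency genes were called without replicate 3. Of 36 tested, 1 rose and 2 fell in that fit, beside 2.75% and 0.473% of all genes. In all 3 shRing1b libraries, 9 of the 36 lay below every control (7.53% of all genes). The 24-library fit called 1 higher and 9 lower, beside 9.68% and 5.42% of all genes. Tet2, which oxidises methylated cytosine, had 500, 471 and 456 CPM in controls and 279, 329 and 303 CPM in shRing1b cells, with no overlap (log2 change over 6 libraries -0.65, SE 0.11, edgeR adjusted p = 0.141, and 0.0325 without replicate 3). The nuclear receptor gene Nr5a2 had 108, 125 and 120 CPM against 82.9, 75.5 and 69.1 CPM (adjusted p = 0.0496 without replicate 3). Both were low in replicate 3 too. Fbxo15 was the member that rose, with 237 to 298 CPM against 528, 462 and 264 CPM. Pou5f1 (Oct4) had 816, 987 and 908 CPM against 834, 886 and 749 CPM. Nanog had 51.8 to 58.8 CPM against 58.1, 69.4 and 38.2 CPM, and Sox2 615 to 761 CPM against 554, 545 and 602 CPM. None of these 3 was called without replicate 3. Of 21 genes of the primed state, 2 rose (Krt18 and Cldn6) and 1 fell (Foxp1) without replicate 3. Foxp1 had 126, 147 and 172 CPM against 86.1, 67.0 and 70.1 CPM.

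Extraembryonic endoderm genes separated the shRing1b libraries from each other. Of 23 tested, 2 rose and 0 fell without replicate 3 (Col4a1 and Lamb1), and the median log2 difference was 0.60, 2.69 and -0.97 in replicates 1, 2 and 3. In replicate 2, 22 of the 23 were at least 2-fold above the control mean, beside 8.64% of all genes, whereas in replicate 3, 11 were at least 2-fold below it, beside 3.23%. Gata4, a factor that specifies primitive endoderm, had 16.4, 10.7 and 9.73 CPM in controls and 21.8, 74.1 and 2.83 CPM in shRing1b cells. Gata6 had 5.18 to 9.24 CPM against 10.1, 54.6 and 7.30 CPM, and the endocytic receptor gene Cubn 38.5 to 77.6 CPM against 79.9, 588 and 20.9 CPM. Summed over the list, the level was 2252 to 2594 CPM in controls and 3517, 9724 and 1562 CPM in shRing1b cells. In bulk RNA, more cells of a type and more RNA per cell cannot be told apart. Replicate 2 had the highest level of most of these genes, and their part in the calls made with replicates 1 and 2 was not tested.

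Genes induced by low oxygen were high in replicate 3. Of the 11 tested, 9 were at least 2-fold above the control mean in that library, beside 6.33% of all genes, and 0 in replicates 1 and 2. The median log2 difference was -0.30, -0.01 and 1.79 in replicates 1, 2 and 3. Bnip3, a mitophagy receptor, had 54.0, 45.2 and 38.1 CPM in controls and 33.1, 33.8 and 220.5 CPM in shRing1b replicates 1, 2 and 3. Slc2a1, the glucose transporter Glut1, had 332 to 514 CPM against 332, 367 and 1132 CPM. The summed level of the 11 genes was 1520 to 2076 CPM in controls and 1560, 1498 and 4067 CPM in shRing1b cells. Replicate 3 thus stood apart from replicates 1 and 2 in these genes as well as in Rnf2, and the part of this difference in its other values was not tested. Of the whole list of 25 stress and hypoxia genes, 1 (Hspa1a) rose without replicate 3. Cholesterol synthesis genes had no call among 22 without replicate 3, while the 24-library fit on all replicates called 9 higher and 0 lower. Of the 22, 5 lay above every control in all 3 shRing1b libraries, with a median log2 difference of -0.0005, 0.41 and 0.58 by library.

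Trophectoderm genes included more calls than the other lineage lists. Of 14 tested, 6 rose (Krt18, Krt8, Krt19, Gata3, Hand1 and Esx1) and 0 fell without replicate 3, and the median log2 difference was 1.56, 1.35 and 0.67 by library. Krt18, a keratin of simple epithelia, had 14.5, 8.62 and 9.03 CPM in controls and 40.1, 43.6 and 14.7 CPM in shRing1b replicates 1, 2 and 3. Its partner Krt8 had 3.88 to 6.40 CPM against 18.7, 35.9 and 4.30 CPM. Krt19 was highest in replicate 3, with 3.83, 2.71 and 2.31 CPM against 9.40, 18.9 and 21.9 CPM (log2 change over 6 libraries 2.50, SE 0.37, edgeR adjusted p = 0.136, and 0.0149 without replicate 3). Cdx2 and Elf5, which define this lineage, were under the filter over 6 libraries, Cdx2 with 2, 4 and 5 counts in controls and 20, 17 and 6 in shRing1b cells. Cdx2 passed the filter without replicate 3 and was not called.

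In each of the lists below, 1 to 3 genes rose and 0 fell without replicate 3. The genes that rose were 7.14% to 10.7% of those tested in a list, beside 2.75% of all genes. One gene of 14 neural markers rose, Nes (nestin), with 9.56 to 12.2 CPM against 26.3, 25.2 and 13.8 CPM. One of 10 primitive streak and mesoderm genes rose, Hand1, with at most 0.301 CPM against 1.81, 0.903 and 1.22 CPM, and 1 of 11 fibroblast markers, Col1a1, with 0.63 to 0.948 CPM against 2.68, 2.43 and 1.70 CPM. Among 19 interferon response genes 2 rose (Cxcl10 and Gbp2), and Gbp2 had 0.175 to 0.281 CPM against 1.81, 0.938 and 2.46 CPM. Of 20 retinoic acid response genes 2 rose (Meis1 and Foxa1), and of 19 immediate early genes 2 rose (Cyr61 and Atf3). The germ cell gene Stra8, which responds to retinoic acid, was above every control in all 3 libraries with 34.6 to 53.9 CPM against 90.0, 71.7 and 96.8 CPM, and was not called (adjusted p = 0.0776 without replicate 3). Of 28 imprinted genes 3 rose, and Igf2, a fetal growth factor, had 2.53, 2.26 and 3.71 CPM against 32.6, 13.9 and 2.49 CPM.

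**Figure D5:**
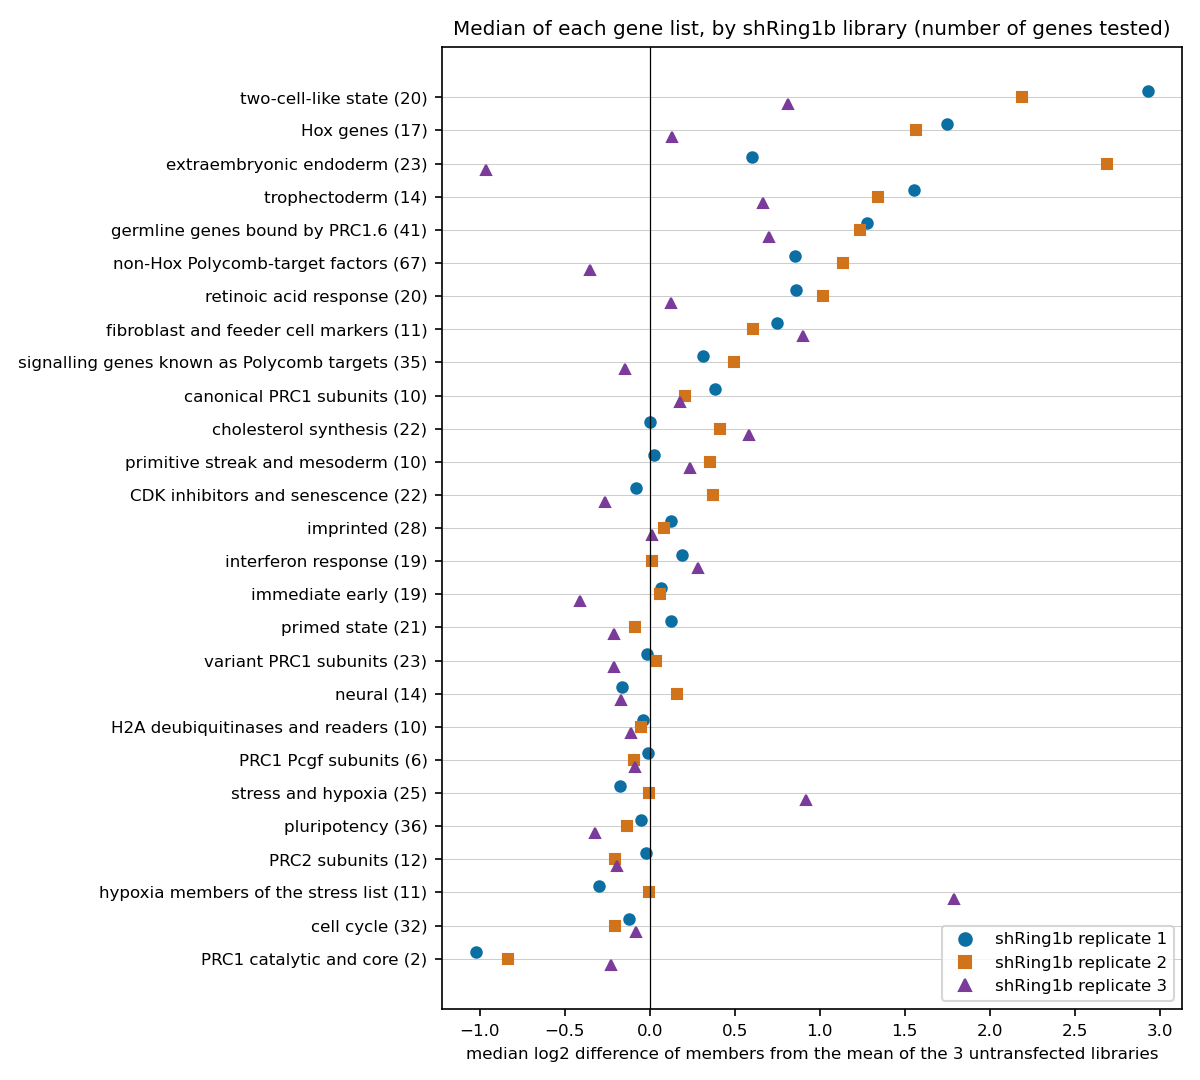
Median log2 difference from the mean of the 3 untransfected libraries (horizontal axis) of 26 gene lists, and of the hypoxia members of one of them, in shRing1b replicates 1 (blue circle), 2 (orange square) and 3 (purple triangle), with the number of genes tested in parentheses. The two-cell-like and germline medians are above 0 in all 3 libraries, and the endoderm and hypoxia medians set single libraries apart.

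The largest changes by rule came from the fit without replicate 3, since no gene passed over all 6 libraries. Among named genes with a mean of at least 5 CPM in one group, the 12 largest rises were Pramel6, Tex13, Pramel7, Dub1a, Usp26, Ankrd1, Dub1, Flt1, Cdh5, Taf7l, Tcfec and Slco2a1. Tex13, a testis gene, had at most 0.703 CPM in controls and 1.97, 50.4 and 1.27 CPM in shRing1b cells, so replicate 2 dominated. Flt1, a receptor for vascular growth factors, had 0.703, 0.828 and 0.805 CPM against 6.88, 10.3 and 2.63 CPM and was higher in all 3 libraries. Ankrd1 had 0.301 to 0.525 CPM against 6.49, 3.65 and 0.0849 CPM, and Cyr61, like Ankrd1 a known target of the coactivator Yap, had 9.91, 10.5 and 10.7 CPM against 45.7, 53.9 and 4.61 CPM. Both were above every control in replicates 1 and 2 and below every control in replicate 3.

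The largest falls by the same rule were smaller than the largest rises. The 12 largest falls without replicate 3 were Zfy1, Rnf2, Piwil4, Spn, Pou2f3, Zfp712, Ube2v2, Ifitm1, Slc11a1, Dtna, Sult6b1 and Bdh2, with Rnf2 among them through the choice of libraries. Ifitm1, an interferon-induced membrane protein, had 157, 139 and 145 CPM in controls and 74.5, 60.9 and 69.3 CPM in shRing1b replicates 1, 2 and 3, an even difference (log2 change over 6 libraries -1.11, edgeR adjusted p = 0.0938, and 0.00643 without replicate 3). In shNMC cells Ifitm1 was at 152 to 169 CPM beside 147 to 165 CPM in untransfected cells on the same scale. Bdh2, an enzyme of siderophore synthesis, had 33.6, 28.0 and 29.6 CPM against 14.7, 14.7 and 13.5 CPM. Replicate 3 was as low as the other shRing1b libraries for both genes. Zfy1, a zinc finger gene of the Y chromosome, had 11.1, 8.01 and 9.70 CPM in controls, 2.04 and 2.22 CPM in replicates 1 and 2 and 18.2 CPM in replicate 3. Sult6b1 behaved alike, with 35.9 to 43.6 CPM, then 17.03 and 21.1 CPM and 72.0 CPM in replicate 3.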

How the data were processed

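Poly-A RNA was sequenced in strand-specific libraries with reads of 50 bp, per the labels. Each library has 1 deposited file of raw counts, in which the authors list 22609 symbols, unscaled, and 5 entries without a gene name. The submitters' processing notes name build mm9 and the tools STAR 2.3.1z13, HTSeq 0.6.1p1, DESeq2 1.6.3, SAMtools 1.2 and bcl2fastq 1.8.4, with no role for any. Neither the annotation nor whether counting used strand is stated in the sources used here. The 5 entries, among them multi-mapped reads (20.02% to 21.7%) and reads in no feature (14.6% to 17.3%), were left out.

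Groups came from the sample titles. Counts of the 6 libraries were filtered with filterByExpr by group (14378 genes, 14660 without shRing1b replicate 3), scaled by TMM and tested with the robust quasi-likelihood test of edgeR 4.0.16 in R 4.3.3, two-sided, with Benjamini-Hochberg adjustment over all genes and a threshold of 0.05. Levels are TMM-scaled CPM, and log2 differences of single libraries use a prior count of 2. The procedure was tested on simulated data. At 2-fold it recovered 40% of changed genes with 6 libraries and 63% without replicate 3, and at 4-fold 100% in both. The simulation gave every gene the same spread and every shRing1b library the same change, and it changed only the more abundant genes. Its recovery therefore does not apply to genes that differ between shRing1b libraries. In the data, Usp26 was not called over 6 libraries at a log2 change of 3.34. Replicates differed by more than counting noise (mean chi-square per gene 20.8 to 136). DESeq2 1.42.0, other scaling, no filter, a fit on 24 libraries, a replicate block, shNMC as control and leaving out each library were the alternatives.

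The members and the 26 gene lists were chosen with earlier results of these data known, so no p is given over a list. Genes named are the PRC1 and PRC2 members, the 12 largest rises and falls among called genes with a mean of at least 5 CPM and groups that do not overlap (leaving out gene models, histones and pseudogenes), up to 4 called members of each list, and set reference genes. Counts of list members called without shRing1b replicate 3 are over genes that passed the filter on all 6 libraries, a choice made after the values were seen. Since the test over 6 libraries called no gene, the rule was applied to the fit without shRing1b replicate 3, a step added after the values were seen; further list members were also picked after their values were seen, to show how the libraries differ. Promoter sequences came from RefSeq (GRCm38.p6) and were matched by symbol. A check of promoter content over all called genes is void, because a promoter was found for only 350 of the 456 genes called higher (76.8%).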

Additional observations from a re-analysis of the deposited data

How the results depend on the processing

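The direction of the Rnf2 change was the same in every alternative. Its log2 change ranged from -2.14 to -0.91 when single libraries were left out, and it passed the threshold without shRing1b replicate 3 (-2.14), which is no test of Rnf2, since that library is the one with Rnf2 near the controls. It was called at -1.27 in the fit on all 24 libraries (edgeR adjusted p = 0.00573) and at -1.27 against shNMC (0.00388). In fits added after seeing the data, without replicate 3, it was -2.16 with DESeq2, -2.16 on 24 libraries and -2.16 against shNMC, with the same limit. Counts of called genes varied most. Genes higher and lower numbered 290 and 88 with DESeq2, 2 and 2 without the filter, 1576 and 883 on 24 libraries, where the other groups set the error (coefficient of variation 0.145 against 0.257), and 2095 and 1199 against shNMC, which differs from shRing1b in depth and multi-mapping. Leaving out single libraries gave 0 to 456 higher and 0 to 68 lower. Without replicate 3, the added fits gave 748 and 337 with DESeq2, 2305 and 1595 on 24 libraries and 2734 and 1944 against shNMC. Of the 456 and 68 genes called without replicate 3, DESeq2 on 6 libraries also called 213 and 29, and the 24-library fit 439 and 47. Same-numbered libraries did not deviate together (r -0.117, 0.0622 and -0.10). With deviations from means of only 3 libraries, these values cannot exclude a pairing by replicate number. With the replicate block 0 genes were called in either direction, and Rnf2 was at -1.54. Below about 0.11 CPM, which is 3 counts, differences were not detectable at this depth.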

Other observations

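Genes called higher without shRing1b replicate 3 included a larger share of X-linked genes than the genes tested. Of 456 genes called higher, 454 were placed on a chromosome through RefSeq symbols, and 56 of these (12.3%) were on the X chromosome, beside 552 of 14562 genes tested (3.79%) and 1 of 68 called lower (1.47%). Usp26, Taf7l, Tex11, Tex13 and Scml2, described above, are among them. Of the 456, only 395 passed the filter over all 6 libraries, and the others passed only without replicate 3. The X-linked share of the 395 by themselves was not computed. The share given is a description, and no test of it was made.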
